A study of Mus musculus with 18 samples.

Results

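The genes described here are the nuclear genes of oxidative phosphorylation in mouse testis, taken by name from the deposited expression table. A row was a member if its symbol began with Nduf, Uqcr, Atp5 or Cox4 to Cox8, or was Sdha, Sdhb, Sdhc or Sdhd. This gave 96 of the 20985 genes: 39 of complex I, 8 assembly factors of complex I (Ndufaf genes), 4 of complex II, 8 of complex III, 20 of complex IV and 17 of complex V. Ndufa4 and Ndufa4l2 were counted with complex IV, where the Ndufa4 protein is now placed. The 39 of complex I include Ndufa11b and Ndufb4c, annotated as processed pseudogenes, and Ndufb4b, which had no match in the annotation used. The libraries were made from RNA of whole testis of 10-week-old ICR mice (outbred), with 3 libraries in each of 6 groups. The control group is labelled only as control, and the AOS group as dosed at 10 mg/kg with AOS, alginate oligosaccharide, a short-chain sugar made from alginate of algae. The label of the STZ group names streptozotocin, a toxin of pancreatic beta cells used to induce diabetes, and the STZ + AOS group with both agents at the same AOS dose. The last pair of groups combined STZ with transfer of gut microbiota (FMT, faecal microbiota transplant), and the labels are taken to mean donors dosed with 10 mg/kg AOS (AOS-FMT) or control donors (control-FMT). Whether the 3 libraries of a group were separate animals is not stated, and p-values then cover only the spread between libraries, which may be technical.

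The respiratory chain passes electrons from NADH (complex I) and succinate (complex II) through complex III and cytochrome c to oxygen at complex IV, and complex V (ATP synthase) uses the resulting proton gradient to make ATP. Most subunits are encoded in the nucleus and the remainder in mitochondrial DNA. Several subunits of complex IV have more than 1 gene, each with its own tissue pattern, and developing male germ cells switch on their own versions, Cox6b2, Cox7b2 and Cox8c, beside the widely expressed Cox6b1, Cox7b and Cox8a. Genes on the X chromosome are silenced during male meiosis, and most stay low in spermatids.

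Levels of the members spanned several orders of magnitude. The values are in FPKM, fragments scaled by transcript length and sequencing depth, so that levels can be set side by side between genes. Averaged over the 18 libraries, Cox6b2 (526.1 FPKM) and Cox8c (412.6 FPKM), both testis isoforms, were the highest members of complex IV, Atp5b (364.8 FPKM), the catalytic beta subunit, of complex V, and Ndufa12 (346.7 FPKM) of complex I. The lowest were Cox8b, a heart and muscle isoform listed at 0 in every library, Cox6a2, the muscle isoform of subunit 6a (0 to 1.07 FPKM), Cox4i2, the lung isoform of subunit 4 (0.6933 FPKM), and the Ndufb4-like gene Ndufb4b (0.7906 FPKM). Tests used the 94 members with at least 1 FPKM in at least 3 libraries, which left out Cox8b and Cox6a2; Cox4i2 passed only through its 3 STZ libraries. The 96 members together made up 1.649 ± 0.00845% of the summed FPKM in control and 1.921 ± 0.172% in STZ (SD, n = 3 in both). The lowest of the 4 remaining groups was STZ + AOS with 1.66 ± 0.0212%, and the highest was AOS with 1.733 ± 0.0109%. No mitochondrially encoded subunit was in the table, so nothing is reported here on those genes.

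The STZ libraries differed from the rest of the series in much of the transcriptome, which bears on every count below. Summed markers of elongating spermatids lay between 54490 and 60920 FPKM in control and at 49720, 27220 and 35530 FPKM in STZ replicates 1 to 3, and 12 of 12 fell. Summed Sertoli cell markers were at 692.3 to 761.9 FPKM in control and 1690 to 2215 FPKM in STZ (10 of 10 rose), and macrophage markers at 55.14 to 56.63 and 148.8 to 296.3 FPKM (6 of 7 rose). Leydig cell markers split the STZ libraries, with 1774 FPKM in replicate 1 against 11910 and 12710 FPKM in replicates 2 and 3 and 3497 to 4013 FPKM in control. Most of that sum was Insl3, a Leydig cell hormone (1574.39, 10966.60 and 11438.49 FPKM in STZ replicates 1 to 3), and 0 of 7 Leydig markers were called (median −0.08). In bulk tissue, fewer cells of a type and less RNA per cell cannot be told apart, and the part of these shifts in the results below was not tested. The median of all 14164 tested genes was itself 0.17 higher in STZ than in control (log2 scale), and medians of the members are set beside it. Differences of single genes are given as deposited, without subtracting it, unless another scaling is named.

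Upstream sequence is shown for the 2 pairs of a testis and a widely expressed isoform of complex IV for which both genes had an entry, because these pairs carry the main contrast in the levels. Each line gives the 250 bases upstream of the annotated start in RefSeq (GRCm38.p6), 5′ to 3′ on the gene's strand. They lie at chr7:4753095-4753344 (Cox6b2, minus strand), chr7:30626115-30626364 (Cox6b1, minus strand), chr5:71548206-71548455 (Cox7b2, minus strand) and chrX:106015450-106015699 (Cox7b, plus strand). Capitals mark a match to one of the motifs named next.
Cox6b2: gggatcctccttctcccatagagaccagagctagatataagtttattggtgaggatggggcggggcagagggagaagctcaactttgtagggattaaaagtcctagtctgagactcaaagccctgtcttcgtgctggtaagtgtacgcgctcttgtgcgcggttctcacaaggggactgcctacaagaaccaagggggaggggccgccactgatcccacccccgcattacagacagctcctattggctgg
Cox6b1: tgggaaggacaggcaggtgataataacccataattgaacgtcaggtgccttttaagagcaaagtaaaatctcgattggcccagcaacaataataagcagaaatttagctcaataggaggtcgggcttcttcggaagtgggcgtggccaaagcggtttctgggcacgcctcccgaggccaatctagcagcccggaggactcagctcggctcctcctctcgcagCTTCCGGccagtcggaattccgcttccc
Cox7b2: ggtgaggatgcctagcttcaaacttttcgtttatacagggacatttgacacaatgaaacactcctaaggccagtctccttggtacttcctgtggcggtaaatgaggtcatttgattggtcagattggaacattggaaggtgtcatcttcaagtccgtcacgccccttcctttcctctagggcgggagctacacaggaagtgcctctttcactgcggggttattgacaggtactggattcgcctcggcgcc
Cox7b: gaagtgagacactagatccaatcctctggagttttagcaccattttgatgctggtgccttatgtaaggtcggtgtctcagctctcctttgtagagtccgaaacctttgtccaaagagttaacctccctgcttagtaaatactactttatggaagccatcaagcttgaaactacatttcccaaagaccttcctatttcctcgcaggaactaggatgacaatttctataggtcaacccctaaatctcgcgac
Short words were searched on both strands, none of them part of another: GCATGCGC for NRF1 and CCGGAAG for GABPA (NRF2), a pair of activators of respiratory chain genes, AAGATGGC for YY1, and TGACGTCA for the cAMP response element that spermatid activators bind. Of the 4 sequences only Cox6b1 held a match, the reverse complement of the GABPA word, from 28 to 22 bases upstream of the start. Among the 77 members with an entry, 9 (11.688%) held the NRF1 word and 14 (18.182%) the GABPA word, against 2.561% and 7.826% of all 27025 genes. The YY1 word was in 1 member (1.299%, against 1.828%) and the cAMP response element in 4 (5.195%, against 1.769%). At least 1 of the first 3 words was in 21 of 77 members (27.3%) and in 11.5% of all genes. These matches describe letters in a window and were not tied to the measured differences.

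The first comparison asked how STZ testes differed from control testes. Of 94 members, 45 were higher in STZ and 2 were lower, and the other 47 did not pass (limma, adjusted p under 0.05). The 45 include Cox4i2, which entered the test only through its STZ libraries. Among all genes tested, 43.2% were called higher and 12.0% lower, so the members' 47.9% was near the background for increases, and their 2.13% lay below it for decreases. The median difference of the members was 0.22 on the log2 scale, against 0.17 for all genes. The 3 STZ libraries lay wholly above the 3 control libraries for 52 of the 94 members and wholly below for 3, where 42.1% and 11.5% of all genes did so. As deposited, the members were thus close to all genes in their median and in their share called higher. Their share called lower was smaller than that of all genes. Median centring shifts every gene of a library alike, so the medians became −0.12 for the members and −0.17 for all genes, and 7 members were higher and 32 lower. These were 7.45% and 34% of the members, against 18.9% and 43.2% of all genes. After quantile normalization the medians were 0.24 and −0.06, with 51.1% of the members higher and 3.19% lower against 22.3% and 28.9% of all genes, so there the members were not near the background. Correction for length and GC content gave 0.05 and −0.06, with 20.4% of the members higher and 10.8% lower against 25% and 34.3% of all genes.

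**Figure D1:**
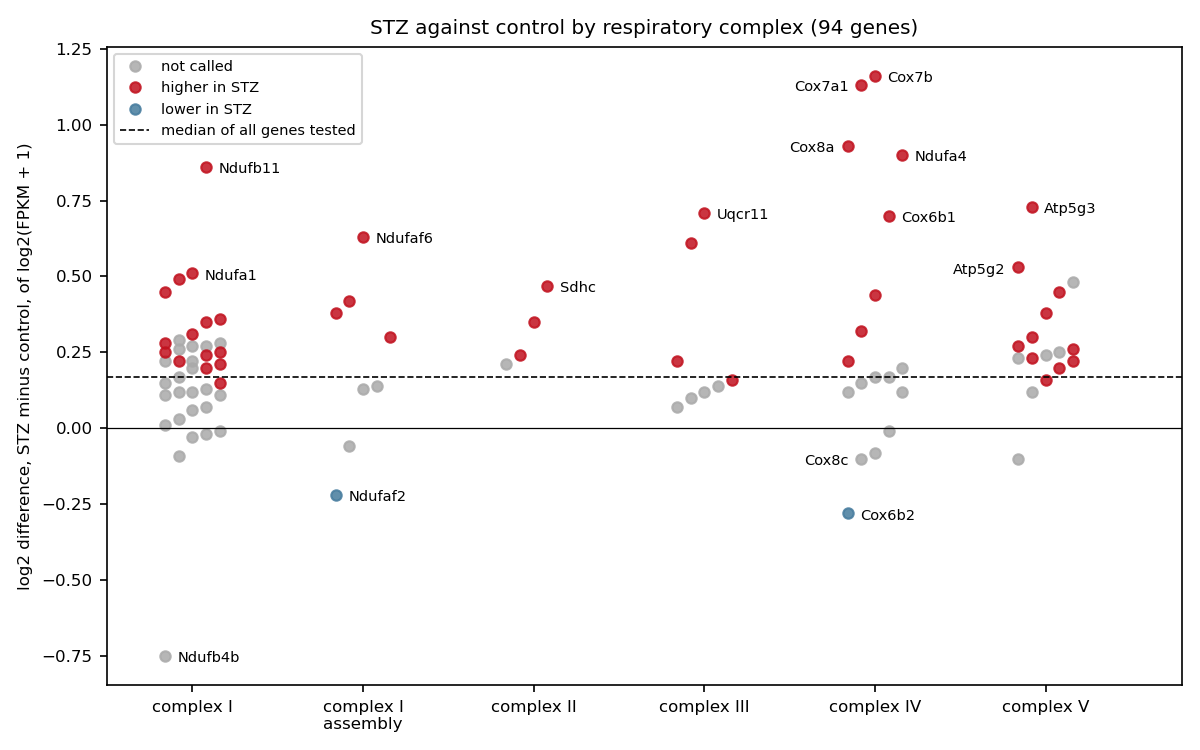
Difference between STZ and control on the log2(FPKM + 1) scale (vertical axis) for each of the 94 tested genes, by complex (horizontal axis); red points were called higher, blue lower and grey not called, and the dashed line is the median of all genes tested (0.17). Cox7b, Cox7a1, Cox8a and Ndufa4 in complex IV lie highest, and Cox6b2 and Ndufaf2 are the called decreases; after median centring the median of these genes (−0.12) and that of all genes (−0.17) are below 0.

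Within complex IV, the testis isoforms and their widely expressed partners differed in opposite or unequal ways. Cox6b2, the testis form of subunit 6b (chr7:4751792-4753094), was at 549.66, 530.40 and 554.61 FPKM in control and at 454.70, 450.83 and 438.29 FPKM in STZ. All 3 STZ values were below the other 15 libraries of the series, the only member for which this held. It fell by 0.28 (SE 0.07, adjusted p = 0.0027), a call that was lost after quantile normalization (−0.11, adjusted p = 0.13). Its partner Cox6b1 (chr7:30616861-30626151) was at 58.21, 59.94 and 59.71 FPKM in control and at 65.31, 114.54 and 120.71 FPKM in STZ. STZ replicate 1 lay just above control and the other 2 far above, and the call was an increase of 0.70 (SE 0.16, adjusted p = 0.0016).

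For subunit 7b the widely expressed gene is X-linked. Cox7b (chrX:106015700-106022450) was at 5.46, 6.30 and 6.98 FPKM in control and at 9.38, 18.16 and 19.99 FPKM in STZ, all 3 above the other 15 libraries. It had the largest increase of any member (1.16, SE 0.20, adjusted p = 0.00019). Cox7b2, the testis gene (chr5:71442824-71548205), was at 287.08, 251.51 and 210.94 FPKM in control and at 275.37, 275.61 and 274.06 FPKM in STZ. The STZ values fell inside the control range and the difference did not pass (0.15, SE 0.11, adjusted p = 0.27). After median centring it was −0.19, also short of the threshold, and after length and GC correction it was 0.27 and passed (adjusted p = 0.048).

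The subunit 8 pair differed likewise in the widely expressed gene. Cox8a (chr19:7215153-7217616) was at 72.15, 57.13 and 71.53 FPKM in control and at 89.45, 154.86 and 150.49 FPKM in STZ, above every other library of the series. It rose by 0.93 (SE 0.17, adjusted p = 0.0003). Cox8c, the testis gene (chr12:102899316-102900526), was at 387.54, 401.98 and 400.96 FPKM in control and at 396.10, 346.77 and 371.54 FPKM in STZ. The groups overlapped through STZ replicate 1 and the difference of −0.10 (SE 0.05, adjusted p = 0.14) did not pass, although it did without that library (−0.14, adjusted p = 0.02) and after median centring (−0.44), while quantile normalization gave 0.02.

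**Figure D2:**
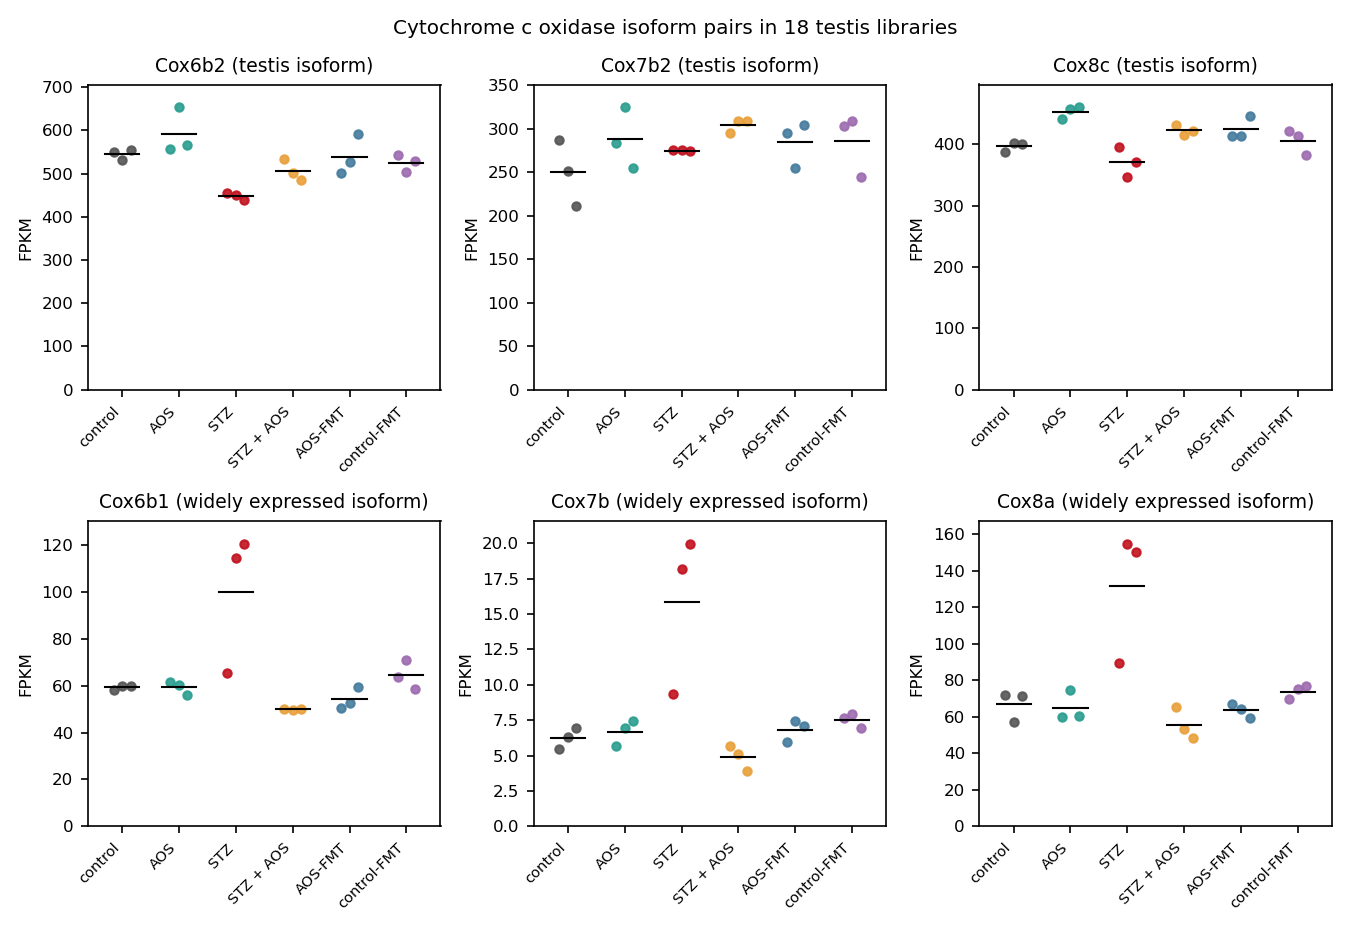
FPKM (vertical axes, from 0) of 3 pairs of complex IV isoforms in the 18 libraries; each point is a library, the bar is the mean of 3, and groups are along the horizontal axis. In the lower row STZ replicates 2 and 3 stand well above all other libraries for Cox6b1, Cox7b and Cox8a, with replicate 1 nearer to the other groups.

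The balance within each pair can be read as the testis isoform's share of the pair's summed FPKM, which no shift common to a whole library can change. For subunit 6b the share was 90.18 ± 0.301% in control and 81.86 ± 4.88% in STZ, with 87.44, 79.74 and 78.41% in the 3 STZ libraries. For subunit 8 it was 85.57 ± 1.74% and 73.96 ± 6.68%, and for subunit 7b 97.5 ± 0.67% and 94.58 ± 1.87% (SD, n = 3 each). All 3 STZ libraries were below all 3 control libraries in each pair, for 7b by a small margin (96.71% in STZ replicate 1 against 96.8% in control replicate 3).

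The log2 ratio of testis to widely expressed isoform, with 1 FPKM added to each, differed between STZ and control by −0.98 for 6b, −1.01 for 7b and −1.03 for 8. The exact two-sided permutation p over 3 and 3 libraries was 0.1 for 6b and 8, the smallest this design allows, and 0.2 for 7b, whose groups overlap once 1 FPKM is added. In all 10 pairs were tested in this way, and the p-values adjusted over these pairs were 0.2 (6b), 0.33 (7b) and 0.2 (8), so none could pass 0.05. Testis partners of the chain outside the rule gave ratios of like size: cytochrome c (Cyct to Cycs, −1), the ADP/ATP carrier (Slc25a31 to Slc25a4, −0.83) and pyruvate dehydrogenase E1 alpha (Pdha2 to Pdha1, −0.85), each with an exact permutation p of 0.1. Here too the widely expressed gene moved more than the testis gene. Cycs was at 19.02, 16.81 and 18.56 FPKM in control and 25.94, 34.78 and 41.01 FPKM in STZ (0.85, adjusted p = 4.5e-05), and Slc25a4 (0.97) and X-linked Pdha1 (0.77) also rose. Slc25a31 (0.14) and Pdha2 (−0.08) did not pass, and Cyct fell by 0.15 (adjusted p = 0.049).

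**Figure D3:**
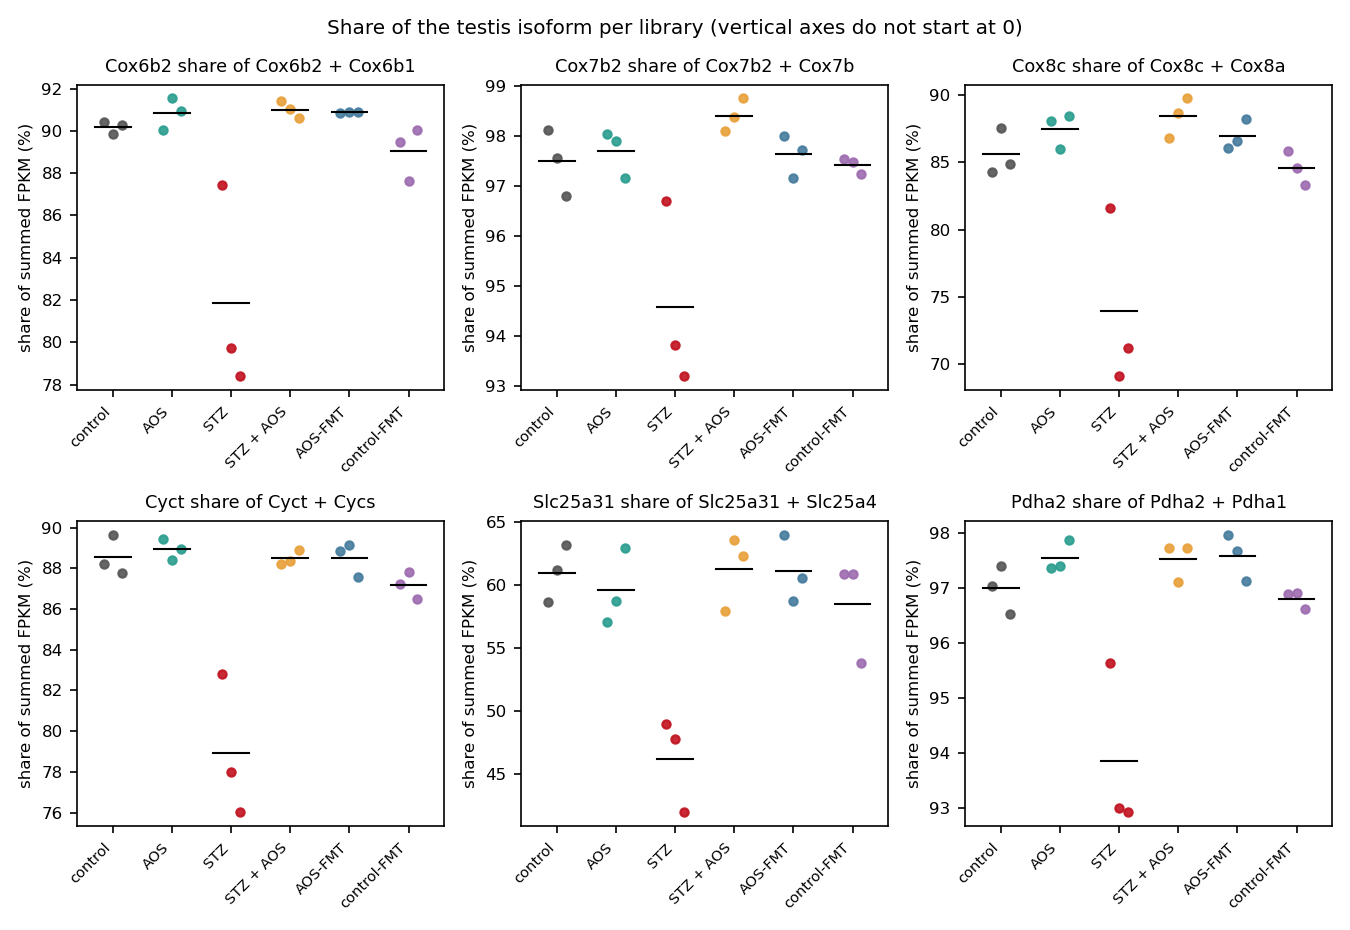
Share of the testis isoform in the summed FPKM of each pair (vertical axes in percent, not starting at 0) in the 18 libraries; points are libraries and bars are means of 3. STZ libraries lie lowest in each of the 6 panels, and STZ replicate 1 is the highest of the 3 in each.

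The isoforms of heart, lung and low oxygen were at low levels and less even. Cox7a1, the heart and muscle form of subunit 7a, was at 4.44, 3.51 and 5.38 FPKM in control and at 3.37, 17.47 and 19.21 FPKM in STZ. STZ replicate 1 lay below all control libraries and the other 2 far above. Its call as higher (1.13, SE 0.39, adjusted p = 0.024) was lost without either of those 2 libraries (0.80 and 0.74), without control replicate 1 (1.13) or 2 (1), and after median centring or quantile normalization. Skeletal and heart muscle markers summed to 11.73 to 11.99 FPKM in control and 10.82, 13.66 and 18.04 FPKM in STZ replicates 1 to 3, and the Leydig markers above rank the 3 STZ libraries in the same order as Cox7a1. Fat markers did so too (28.86, 37.01 and 172.8 FPKM, against 20.4 to 34.76 FPKM in control), with 1 of 5 tested called higher. So did pericyte and vessel markers (41.14, 52.27 and 72.87 FPKM, against 25.5 to 30.18 FPKM), of which 5 of 5 tested rose. Sertoli (1690, 2215 and 2140 FPKM), macrophage (148.8, 296.3 and 257.4 FPKM) and red cell markers (61.53, 396.2 and 185.9 FPKM) were instead highest in replicate 2. In control-FMT, fat markers were at 63.58 to 89.07 FPKM and Cox7a1 at 3.71 to 6.22 FPKM. The part of these markers in the values of Cox7a1 and of Cox4i2 was not tested. Cox4i2, the lung form of subunit 4, was at 0.38 to 0.88 FPKM in control and 1.03 to 1.24 FPKM in STZ (0.44, adjusted p = 0.035), but it was at 1 FPKM or more in the STZ libraries alone and so had to be higher there, and the call was lost under each of the 3 other scalings (0.10 to 0.26).

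Ndufa4l2, a gene induced by low oxygen, was at 20.40, 21.93 and 19.15 FPKM in control and at 29.49, 22.73 and 19.62 FPKM in STZ, and did not pass (0.20, adjusted p = 0.21). Its relative Ndufa4 (chr6:11900292-11907497) was at 41.14, 44.59 and 49.50 FPKM in control and at 55.25, 95.49 and 114.48 FPKM in STZ. The groups did not overlap, and Ndufa4 rose by 0.90 (SE 0.19, adjusted p = 0.00096). Of the main forms, Cox6a1 (0.32) and Cox4i1 (0.22) were called higher and Cox7a2 (−0.08) was not called; after median centring Cox6a1 was at −0.02 and Cox4i1 at −0.12, and after quantile normalization Cox7a2 was at 0.01. In all, complex IV had 8 members higher, 1 lower and 9 not called, where 43.2% of all genes tested were higher and 12.0% lower. The 8 include Cox4i2, whose call is no evidence of an increase because it passed the filter only through the STZ libraries.

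Complex I, which oxidises NADH, had 15 of 39 members higher and 0 lower (median 0.21). The background for this complex, the assembly factors and the complexes that follow was 43.2% of all genes higher and 12.0% lower. Complex I was thus not above it for increases. The largest increases were in its X-linked accessory subunits. Ndufb11 (chrX:20615326-20617619) was at 12.69, 11.38 and 13.72 FPKM in control and at 16.15, 26.46 and 30.84 FPKM in STZ. All 3 STZ libraries exceeded the other 15, and it rose by 0.86 (SE 0.17, adjusted p = 0.00053); its exons overlap the opposite-strand gene Rbm10, and without stated strand counting their reads cannot be told apart. Ndufa1 (chrX:37187588-37191163) was at 23.88, 22.97 and 21.88 FPKM in control and at 25.35, 36.60 and 38.87 FPKM in STZ. It was called higher (0.51, SE 0.14, adjusted p = 0.0049), but STZ replicate 1 was below the AOS libraries, and the call was lost after median centring (0.17). With Cox7b, all 3 X-linked members were thus called higher, where 43.2% of all genes tested were. The share among other X-linked genes is not given here.

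Among autosomal subunits of complex I, Ndufs6, a zinc-binding accessory subunit, was at 76.14, 81.05 and 68.03 FPKM in control and at 94.58, 103.75 and 120.14 FPKM in STZ (0.49, adjusted p = 0.012). Control was low against the other groups as well, since 14 of the other 15 libraries were between 89.92 and 120.14 FPKM and AOS replicate 2 was at 73.24 FPKM. Of 8 assembly factors 4 rose and 1 fell, with Ndufaf6 at 0.45 to 0.89 FPKM in control and 1.27 to 1.96 FPKM in STZ (0.63, adjusted p = 0.0017), Ndufaf4 at 0.42 and Ndufaf5 at 0.38. Ndufaf2, a late assembly factor, was at 36.48, 38.64 and 36.87 FPKM in control and at 29.75, 34.50 and 31.55 FPKM in STZ. It fell by 0.22 (SE 0.07, adjusted p = 0.018) with groups that did not overlap, but the call was lost when only these 2 groups were fitted (adjusted p = 0.053) and without control replicate 2 or STZ replicate 1 or 3. The exons of Ndufaf2 overlap a gene on the opposite strand.

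Complex II oxidises succinate, and 3 of its 4 genes rose. The iron-sulfur subunit gene Sdhb was at 71.91, 70.17 and 70.53 FPKM in control and at 82.71, 86.00 and 83.21 FPKM in STZ, an even increase of 0.24 (SE 0.04, adjusted p = 0.00015). All STZ values were above the other 15 libraries, yet after median centring the difference was −0.10 and no longer passed. The membrane anchor genes Sdhc (24.44, 30.04 and 28.08 against 30.43, 39.25 and 47.37 FPKM, 0.47) and Sdhd (20.55, 22.36 and 23.46 against 27.69, 26.08 and 31.52 FPKM, 0.35) were called, with adjusted p of 0.0038 and 0.0013. The flavoprotein gene Sdha overlapped between groups (40.02 to 43.14 against 39.98 to 54.24 FPKM) and missed the threshold (0.21, adjusted p = 0.052), with −0.14 after median centring and −0.05 after length and GC correction.

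In complex III, which hands electrons to cytochrome c, 4 of 8 members rose and 0 fell (median 0.15, below the 0.17 of all genes). The small subunit gene Uqcr11 was at 55.05, 40.84 and 54.95 FPKM in control and at 63.07, 88.33 and 99.98 FPKM in STZ (0.71, SE 0.17, adjusted p = 0.0027). Uqcrq was at 35, 42.85 and 36.10 FPKM in control and at 64.38, 55.54 and 55.67 FPKM in STZ (0.61, adjusted p = 0.00089). The groups did not overlap for either gene, but STZ did not stand out from the series: Uqcr11 reached 78.15 and Uqcrq 66.20 FPKM in other groups, and both calls were lost after median centring. The core protein gene Uqcrc2 was at 59.22 to 62.40 FPKM in control and 68.97 to 71.52 FPKM in STZ (0.22, adjusted p = 0.0039), and at −0.12 after median centring.

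Complex V, the ATP synthase, had 11 of 17 members higher and 0 lower (median 0.25). Atp5g1, Atp5g2 and Atp5g3 encode the same mature c subunit of the rotating ring with different targeting sequences. Atp5g3 (chr2:73908447-73911326) was at 46.45, 44.14 and 50.37 FPKM in control and at 57.56, 82.72 and 101.21 FPKM in STZ. Atp5g2 (chr15:102662864-102672352) was at 55.37, 52.73 and 54.23 FPKM in control and at 67.19, 80.54 and 88.70 FPKM in STZ. For both genes all STZ libraries exceeded the other 15, with increases of 0.73 (SE 0.14, adjusted p = 0.00059) and 0.53 (SE 0.08, adjusted p = 4.7e-05). Atp5l, which encodes subunit g of the membrane part, was at 105.56, 101.06 and 101.77 FPKM in control and at 129.66, 146.24 and 147.65 FPKM in STZ (0.45, SE 0.05, adjusted p = 2e-06). Its control values were also below every other library, though the AOS and treated STZ libraries (106.17 to 115.54 FPKM) lay much nearer to control than to STZ.

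STZ replicate 1 was the nearest to control for most members called higher. It was the lowest of the 3 STZ libraries for 37 of the 45 members called higher, replicate 2 for 6 and replicate 3 for 2. Without replicate 1, 61 members were called higher, and without replicate 3 only 29. These counts are not given here for all genes, so they are not shown to be particular to the members. The median of all genes was also lowest in replicate 1 (0.09, against 0.21 and 0.24 in replicates 2 and 3). The widely expressed partners Cox6b1, Cox7b and Cox8a had a median of 0.42 above the control mean in replicate 1 and of 1.21 and 1.16 in replicates 2 and 3, while the 3 testis isoforms had medians of 0, −0.19 and −0.09. The 86 members outside these isoforms and the X chromosome were at 0.08, 0.21 and 0.33, next to 0.09, 0.21 and 0.24 for all genes tested. Of the 25 called genes named by rule, Cox4i2 among them, 8 were called under all 3 other scalings: Cox6b1, Cox7b, Cox8a, Ndufa4, Ndufb11, Atp5g2 and Atp5g3 as higher and Ndufaf2 as lower.

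**Figure D4:**
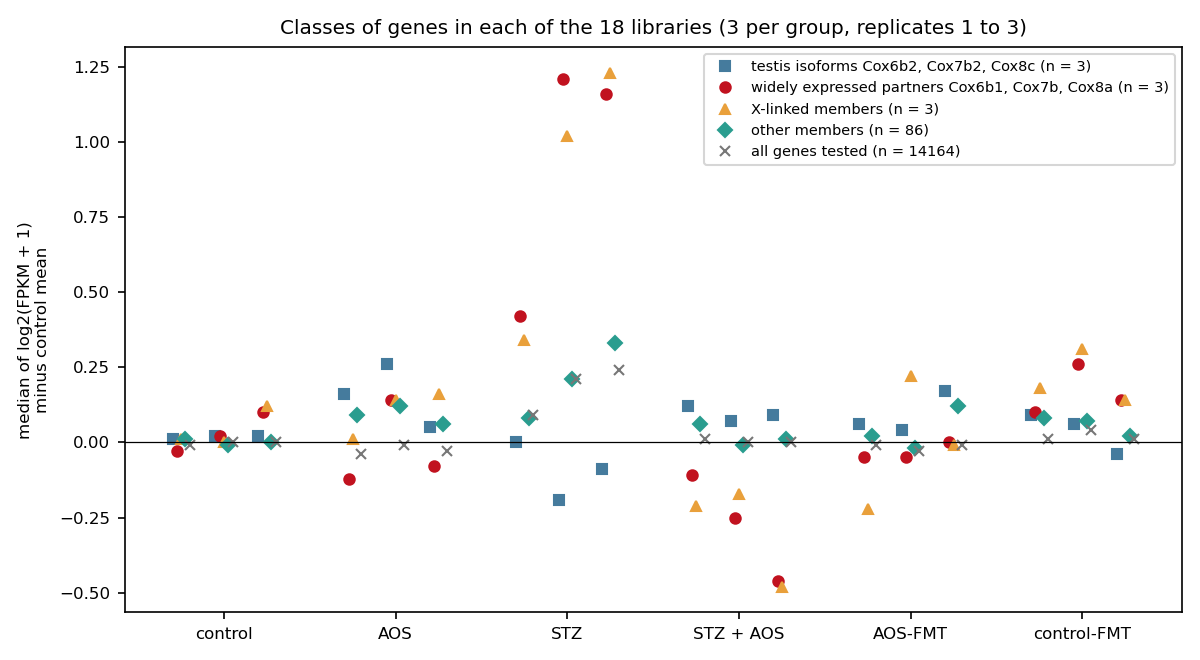
Median of log2(FPKM + 1) minus the control mean (vertical axis) for classes of genes in each of the 18 libraries, 3 per group (horizontal axis); Cox7b belongs to both the partner and the X-linked class. STZ replicates 2 and 3 lie at 1.02 to 1.23 for the partners and X-linked genes, while the 86 other members lie at 0.08, 0.21 and 0.33 in the STZ libraries beside 0.09, 0.21 and 0.24 for all genes tested, and lie above all genes in the AOS libraries.

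Neighbouring mitochondrial genes had counts of the same order as the members. Of 78 genes of the mitochondrial ribosome, 40 rose in STZ and 1 fell (median 0.23), and of 39 tested assembly factors outside the naming rule 20 rose and 1 fell (0.28). Of 18 genes of pyruvate dehydrogenase and the citric acid cycle, 9 rose and 0 fell (0.14), and of 10 carriers and channels 5 rose and 1 fell (0.32). Of 13 regulators of mitochondrial biogenesis 5 rose and 1 fell (0.08). Among all genes tested 43.2% were higher and 12.0% lower (median 0.17), so these increases are not shown to be particular to mitochondrial genes. Across the 94 members, the difference between STZ and control had a Spearman rho of −0.40 with the mean level, so that low members tended to differ more upward, and of −0.06 with transcript length and 0.14 with GC content (n = 93 for the last 2). These genes share their libraries, so the values are descriptions.

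AOS alone was compared with control to see what the oligosaccharide did without STZ. No member was called, and none of the 14164 genes tested was (0%). At an unadjusted p under 0.05, 26 members were higher and 1 lower, where 3.90% of all genes were higher and 5.08% lower, and the smallest adjusted p of a member was 0.41. The difference was positive for 70 of 94 members and for 40% of all genes, with medians of 0.09 and −0.03. The AOS libraries lay wholly above control for 35 members and wholly below for 3, against 7.65% and 14.7% of all genes. This lean upward was noticed after the values were seen, no p is given for it, and the median was 0.08 to 0.13 under the other scalings.

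The members named here for that comparison, the 3 with the smallest p and the testis isoform Cox8c, were chosen after their values were seen. The assembly factor gene Ndufaf3 was at 139.90, 131.56 and 135.04 FPKM in control and at 155.27, 161.38 and 161.12 FPKM in AOS (0.23, unadjusted p from limma 0.0004, adjusted p = 0.41). Uqcrq of complex III was at 62.75, 51.54 and 53.23 FPKM in AOS and at 35, 42.85 and 36.10 FPKM in control (0.54, unadjusted p from limma 0.00063). Cox8c was at 442.16, 457.88 and 460.81 FPKM in AOS, above all control libraries (0.19), and Ndufb7 of complex I at 104.15 to 109.37 against 79.48 to 88.66 FPKM (0.32). Cox6b1 (0.00), Cox8a (−0.04), Cox7b (0.08) and Ndufa4 (0.01) were near 0, and none of the 94 members can be said to have changed. Markers of elongating spermatids summed to 65810 to 67590 FPKM in AOS, above the 54490 to 60920 FPKM of control; their part in these values was not tested.

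The 3 treated STZ groups were each compared with the same 3 STZ libraries to see how far they departed from STZ; because these comparisons share those libraries, their values stand side by side and are no independent evidence of one another. In STZ + AOS, 5 members were higher than in STZ and 43 lower, against 11.9% and 43.1% of all genes (medians −0.18 and −0.17). In AOS-FMT the counts were 7 and 42, against 12.0% and 44.5% (−0.19 and −0.18), and in control-FMT 3 and 32, against 11.4% and 39.9% (−0.16 and −0.15). As deposited, the medians of the members and their shares called lower (45.7, 44.7 and 34%) were thus near those of all genes. Their shares called higher (5.32, 7.45 and 3.19%) lay below those of all genes. After median centring their medians were 0.17, 0.18 and 0.16 in turn, beside 0.18, 0.18 and 0.16 for all genes, and after quantile normalization −0.22, −0.18 and −0.16 beside 0.07, 0.07 and 0.05.

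The members named next were high in STZ in the first comparison, which used the same 3 STZ libraries. A value below STZ was thus partly built in for them and is no separate evidence. The same limit holds in reverse for Cox6b2 and Ndufaf2, which were called lower in STZ and are given further below. Cox7b was at 5.68, 5.09 and 3.88 FPKM in STZ + AOS, 5.98, 7.42 and 7.08 FPKM in AOS-FMT and 7.63, 7.95 and 6.93 FPKM in control-FMT, in each case below all STZ libraries. Its differences from STZ were −1.46, −1.05 and −0.92 (adjusted p = 2.5e-05, 0.00042 and 0.0014). Cox8a was at −1.20, −1 and −0.78 and Cox6b1 at −0.94, −0.83 and −0.58 relative to STZ, all called. Ndufa4 was at 39.51 to 40.88, 35.82 to 45.50 and 46.86 to 62.32 FPKM, so that STZ + AOS and AOS-FMT lay below STZ replicate 1 (55.25 FPKM) and control-FMT overlapped it through replicate 2. Cox7a1, at 2.95 to 6.22 FPKM in these groups, was called lower in all 3 (−1.42, −1.02 and −1.02) with groups that overlapped through STZ replicate 1.

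The few members called higher included the testis isoforms Cox6b2 and Cox8c and assembly factors of complex I. Cox6b2 was called in all 3 comparisons (0.18, 0.26 and 0.23, adjusted p = 0.038, 0.004 and 0.011), with 484.53 to 533.47, 500.43 to 591.25 and 503.33 to 541.94 FPKM, above all STZ libraries. Cox8c was called in STZ + AOS and AOS-FMT (0.19 in each) and not in control-FMT (0.13, adjusted p = 0.056). Ndufaf2 was higher in STZ + AOS (0.37) and AOS-FMT (0.46), as was Ndufa4l2 (0.39 and 0.38), and Ndufaf3 in all 3 (0.18, 0.22 and 0.22). Ndufa12 (0.18) and Atp5s (0.23) were called only in AOS-FMT, and Cox7a2 (0.21) only in control-FMT; whether the groups differ in these genes is given by their direct comparison below. In the same comparisons 12 of 12 elongating spermatid markers rose and 10 of 10 Sertoli markers fell in each group.

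**Figure D5:**
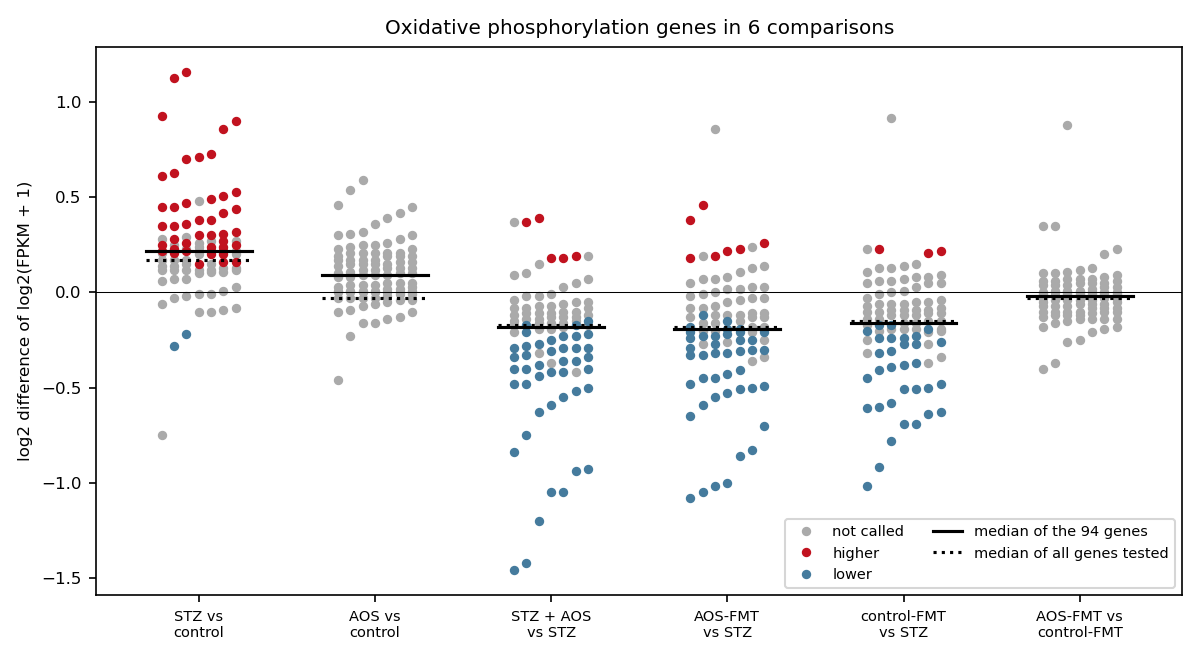
Differences on the log2(FPKM + 1) scale (vertical axis) of the 94 tested genes in 6 comparisons (horizontal axis), with called genes in red (higher) or blue (lower); solid bars are their medians and dotted bars the medians of all genes tested. The bars nearly coincide except for AOS against control (0.09 and −0.03); the 4 comparisons with STZ change sign in their medians after median centring, which shifts all genes of a library alike.

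Set against control, the treated STZ groups had no called member. Among all genes 0.0424% were called in STZ + AOS (6 genes), 0% in AOS-FMT and 0% in control-FMT (limma). At an unadjusted p under 0.05 (limma) the members counted 10, 16 and 14 of 94, where 1130, 927 and 883 of all 14164 genes did so. The medians of the members were 0, 0.03 and 0.05, and their smallest adjusted p was 0.19, 0.31 and 0.35. The isoform shares lay in or near the control range: Cox6b2 made up 91.02 ± 0.406, 90.88 ± 0.0284 and 89.04 ± 1.26% of its pair, Cox8c 88.41 ± 1.48, 86.96 ± 1.14 and 84.59 ± 1.26%, and Cox7b2 98.42 ± 0.325, 97.64 ± 0.431 and 97.43 ± 0.156% (SD, n = 3 each, in the order STZ + AOS, AOS-FMT and control-FMT). A p that misses the threshold does not show that these groups equal control.

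The AOS-FMT and control-FMT groups were also compared with each other, the contrast that asks about the donor. No member and none of the 14164 genes tested passed (0%), and the smallest adjusted p of a member was 0.34. An unadjusted p under 0.05 (limma) was found for 9 of 94 members and for 866 of the 14164 genes. Cox6b1 was at 50.44, 52.76 and 59.27 FPKM in AOS-FMT and at 63.77, 71.13 and 58.70 FPKM in control-FMT, which overlap. Ndufa4 was at 37.44, 35.82 and 45.50 against 46.86, 62.32 and 48.51 FPKM, which do not, and it was not called.

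The interaction asked whether the effect of AOS differed with and without STZ, and it reused the STZ and control libraries of the first comparison. It was called lower for 41 members and higher for 0, against 29.1% and 6.12% of all genes, with medians of −0.29 and −0.16. The widely expressed isoforms had the interaction at −0.94 (Cox6b1), −1.55 (Cox7b) and −1.16 (Cox8a), with adjusted p of 0.0048, 0.00099 and 0.0022, and Cox6b2 (0.06), Cox7b2 (−0.06) and Cox8c (0.00) did not pass. After median centring the counts were 12 lower (12.8%) and 8 higher (8.51%), against 13.1% and 29.6% of all genes. The medians were then 0.02 for the members and 0.15 for all genes. After quantile normalization 40.4% of the members were lower and 1.06% higher, against 13.9% and 16% of all genes, with medians of −0.32 and 0.07. Length and GC correction gave 16.1% lower and 5.38% higher, against 16.8% and 23.6% of all genes. An F test over the 6 groups called 40 of the 94 members (42.6%), below the 52.3% of all genes.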

How the data were processed

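The authors deposited 1 table with a value per gene for each of the 18 testis libraries, and its header names no unit. The deposited values were taken as FPKM because the lowest value of a gene falls with transcript length (Spearman rho −0.72 over 738 genes at 0 in 2 to 5 libraries); RPKM, or TPM with genes left out, cannot be told apart. The submitters' processing notes name Bowtie 0.12.2 and the build mm10, without a role; the sources used here do not name the counter, its strand setting or the annotation. Values summed to between 561038 and 622169 FPKM per library, and the read depth is unknown, so no counting interval or floor is given.

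Tests used limma 3.58.1 in R 4.3.3 with a mean-variance trend on log2(FPKM + 1), which understates changes of low genes, for the 14164 genes with at least 1 FPKM in at least 3 of 18 libraries. A mean per group was fitted with all 18 libraries together, and p-values were two-sided (except F) and adjusted by Benjamini-Hochberg over all genes tested, with calls under 0.05. The model was tested on simulated data. Isoform ratios were tested by exact permutation. Alternatives were median centring, quantile normalization, length and GC correction, a pseudocount of 0.1, no filter, only the compared groups, a replicate block and leaving out each library. The members and lists were chosen with earlier results of these data known. By rule, genes of the isoform pairs, X-linked members, Sdh genes and the 3 largest called changes per complex and direction with groups that do not overlap were named.

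Coordinates are from GENCODE M21 (GRCm38, mm10), which matched 95 of 96 members. Exons of 32 members overlap another gene, 28 of them on the opposite strand and 5 on the same strand, and Ndufb4, Ndufb4b and Ndufb4c, like Ndufa11 and Ndufa11b, are near-identical copies whose values are uncertain.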

Additional observations from a re-analysis of the deposited data

Results flagged for a closer look

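By the interaction term of the model, the difference made by AOS was called lower with STZ than without it for 41 of the 94 members. AOS alone gave no called member. Control-FMT was also lower than STZ for 32 members, against 39.9% of all genes, with Cox7b at −0.92 and Cox8a at −0.78. The part of AOS itself in the interaction was not tested. Among the isoform pairs the interaction was called lower for Cox6b1 (−0.94 on the log2 scale), Cox7b (−1.55) and Cox8a (−1.16), the 3 widely expressed forms. The background for lower interactions was 29.1% of all genes, and the count was 12 after median centring, beside 13.1% of all genes. After quantile normalization 40.4% of the members were lower, beside 13.9% of all genes.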

How the results depend on the processing

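After median centring, which shifts all genes of a library alike, members higher and lower numbered 7 and 32 in STZ against control, 42 and 11 in STZ + AOS against STZ, 44 and 9 in AOS-FMT against STZ, 36 and 7 in control-FMT against STZ, and 8 and 12 for the interaction; medians of the members turned to −0.12, 0.17, 0.18, 0.16 and 0.02 in that order, and to 0.03 between the transplant groups. For the comparisons with these counts, in the same order, 18.9, 44.6, 44.8, 41.9 and 29.6% of all genes were higher. The shares lower were 43.2, 19.9, 19.4, 17.7 and 13.1%. In the same setting Cox7b2 was at −0.19, Cox6a1 −0.02, Cox4i1 −0.12, Ndufa4l2 −0.14, Sdha −0.14, Sdhb −0.10 and Uqcrc2 −0.12 in STZ against control. All genes moved with them: 78.2% of called genes were higher as deposited, 30.4% after median centring, 43.5% after quantile normalization and 42.2% after length and GC correction, which shifted the median of all genes from 0.17 to −0.17, −0.06 and −0.06. Quantile normalization gave 1 member higher and 40.4% of the members lower for the interaction, against 16% and 13.9% of all genes. It also gave Cox8c at 0.02, Cox7a2 at 0.01 and a Cox4i2 to Cox4i1 ratio of −0.14. Length and GC correction (93 members) gave 19 and 10 for STZ against control, 16 and 17, 16 and 18, and 14 higher for the 3 treated groups against STZ, and 5 and 15 for the interaction, with Ndufa4l2 and Sdha at −0.05, a median of 0.02 for AOS-FMT against STZ and 0.04 between the transplant groups. After that correction, for the comparisons with counts and in the same order, 25, 35.8, 35.3, 32.1 and 23.6% of all genes were higher. The members' shares higher were 20.4, 17.2, 17.2, 15.1 and 5.38%. For lower genes the shares were 34.3, 25.6, 25.7, 24 and 16.8% of all genes and 10.8, 18.3, 19.4, 23.7 and 16.1% of the members. The cause of the shifts between scalings was not tested. With only the compared groups in the model, fewer libraries gave 27 and 1 in STZ against control, 1 and 28, 1 and 21, and 14 lower in the treated groups against STZ, and 1 and 1 in STZ + AOS against control.

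Leaving out each library in turn gave 29 (without STZ replicate 3) to 61 (without STZ replicate 1) members higher and 1 to 3 lower in STZ against control. It gave 3 to 6 higher in STZ + AOS, 24 to 51 lower in AOS-FMT and 2 to 5 higher and 19 to 48 lower in control-FMT against STZ, 23 to 57 lower for the interaction, 26 to 61 by the F test, and −0.04 to 0.19 for the ratio of Cox6a2 to Cox6a1, whose first gene is listed at 0 in several libraries. The counts with only the compared groups, with a library left out or with a replicate block are given without the shares of all genes. Counts in AOS against control, in both transplant groups against control and between the transplant groups were 0 under every alternative run. Of 390 values of named genes under alternatives, 315 kept direction and call, 58 lost the call, 6 gained it and 11 changed sign.

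Replicate numbers did not pair the libraries: correlations of same-numbered libraries of different groups ran from −0.21 to 0.2 (45 pairs, 2 over 0.1), and 3 of 18 libraries correlated best with their own number. With a replicate block, 48 members were higher and 2 lower in STZ against control, and no count listed here moved by over 1.5 times. The depth of the libraries is unknown, so no limit from counting can be set on the low members such as Cox4i2 and Ndufaf6.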
